A study of Mus musculus with 7 samples.

Results

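Cytochrome P450 enzymes of families 1 to 4 were followed across mouse adrenal development. They were taken as all gene symbols made of Cyp, a family number from 1 to 4, 1 letter and a member number, which gave 75 of the 35976 symbols measured. The rule used names only, and it left out the steroid-making P450s of the adrenal, such as Cyp11a1 and Cyp21a1. RNA of adrenal glands from C57BL/6J mice, an inbred laboratory strain, was sequenced in 7 libraries, each made from 1 pool of glands with no replicate. All animals were of this 1 strain, and the labels name no treatment and no genetic change. A pool of 40 glands came from embryos at E18.5, just before birth, with the sex not determined. At P1, postnatal day 1, 16 male and 22 female glands were pooled. At 2 weeks each sex gave a pool of 6 glands, and at 12 weeks each gave a pool of 4.

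These enzymes sit in the membrane of the endoplasmic reticulum, carry a heme group and use electrons passed on by the reductase encoded by Por to add oxygen to their substrates. Families 1 to 3 are best known for the oxidation of drugs and other foreign compounds, mainly in the liver, and family 4 for the hydroxylation of fatty acids at the end of the chain. Several of them can turn a harmless compound into a reactive one inside the cell that expresses them, which is why their sites of expression outside the liver, the adrenal among them, are of interest to toxicology.

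Of the 75 genes, 67 had at least 1 read and 8 had none: Cyp2b19, Cyp2b23, Cyp2c38, Cyp2c39, Cyp2t4, Cyp2w1, Cyp4a29 and Cyp4f40. A mean of at least 10 normalized counts, the deposited unit in which reads are divided by a size factor for each library, was reached by 43, and these are the genes tested. They comprised 1 of the 3 genes of family 1, 24 of 48 in family 2, 6 of 7 in family 3 and 12 of 17 in family 4. The lowest mean among them was 15.6 (Cyp4a32), and the highest mean below the limit was 9.31 (Cyp2j11). The remaining 24 had reads but fell below the limit. A gene could pass this filter through 1 age alone, so counts over the 43 describe the genes that passed.

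Each library had between 15184210 and 23551289 reads in genes. The library labelled P1 female held transcripts of 4 Y-linked genes, whose median was 21.02% of that in P1 male (15.6 to 28.1%), so each value from it is that of a library with Y-linked RNA. Genes that mark the liver were abundant in the young libraries. The 10 liver genes, Alb, Ahsg and Fgb among them, summed to 255396 normalized counts at E18.5 and to 337725 and 243168 in P1 male and female. The sums were 13441 and 35085 at 2 weeks in males and females, and 474 and 410 at 12 weeks. All 10 fell from P1 to 12 weeks, and Ambp and Tat were at 0 in the 12-week female library. The 8 kidney genes summed to 9353 in P1 male, 2590 in P1 female and from 35.0 to 1301 in the others. In RNA of whole glands, fewer cells of a type and less RNA per cell cannot be told apart.

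Several patterns recur below, and the promoter of 1 gene of each is shown. Cyp2f2 had its highest levels at 2 weeks, Cyp2e1 in 12-week males, Cyp3a11 at P1, and Cyp1b1 was at a similar level in all postnatal libraries. Each sequence is the 250 bases before the start in RefSeq (GRCm38.p6), 5′ to 3′ on the strand of the gene; the annotation used for gene positions can place the start elsewhere. Capitals mark AAGGTCA, a core that SF1 (Nr5a1), the master regulator of the adrenal cortex, can bind, in Cyp2f2 (chr7:27119705-27119954, plus strand). In Cyp2e1 (chr7:140763569-140763818, plus strand) and Cyp3a11 (chr5:145879855-145880104, minus strand) they mark TATAAA, the letters of a TATA box, 31 and 234 bases before the start. A TATA box lies close to the start, so in Cyp3a11 only the letters are shown to match. In Cyp1b1 (chr17:79715062-79715311, minus strand) they mark the core of the dioxin response element bound by the Ah receptor, GCGTG, read on the other strand.
Cyp2f2: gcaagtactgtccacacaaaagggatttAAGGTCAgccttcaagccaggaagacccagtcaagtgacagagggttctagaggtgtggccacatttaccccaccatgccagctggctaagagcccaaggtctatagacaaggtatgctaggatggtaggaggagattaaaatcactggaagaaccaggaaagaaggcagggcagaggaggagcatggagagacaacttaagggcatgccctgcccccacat
Cyp2e1: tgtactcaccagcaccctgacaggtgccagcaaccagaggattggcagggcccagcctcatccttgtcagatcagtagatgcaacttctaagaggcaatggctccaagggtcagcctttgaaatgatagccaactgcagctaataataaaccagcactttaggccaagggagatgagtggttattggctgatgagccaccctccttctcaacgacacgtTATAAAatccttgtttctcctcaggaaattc
Cyp3a11: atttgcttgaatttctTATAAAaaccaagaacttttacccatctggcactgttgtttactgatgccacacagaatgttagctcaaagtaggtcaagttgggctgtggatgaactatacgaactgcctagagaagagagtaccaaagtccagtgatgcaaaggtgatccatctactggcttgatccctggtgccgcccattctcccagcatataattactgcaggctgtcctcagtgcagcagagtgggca
Cyp1b1: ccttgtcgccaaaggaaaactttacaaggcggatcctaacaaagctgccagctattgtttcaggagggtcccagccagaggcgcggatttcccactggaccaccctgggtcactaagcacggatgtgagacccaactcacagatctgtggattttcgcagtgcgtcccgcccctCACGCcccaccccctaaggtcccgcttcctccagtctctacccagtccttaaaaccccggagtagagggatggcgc

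RefSeq gave 69 promoters for 62 of the genes, searched on both strands. AAGGTCA was in 8 (11.6%), against 4.08% of all 32841 promoters of this length, and began 222 bases before the start in Cyp2f2. The other promoters with it belong to Cyp2c29, Cyp2c39, Cyp3a25, Cyp3a57, Cyp3a59 and Cyp4a29, of which Cyp2c39 and Cyp4a29 had no read. In these 3a genes, which share sequence, it began 153 to 178 bases before the start. TATAAA was in 24 (34.8%), against 12.4%. GCGTG was in 13 (18.8%), against 28.2%, and among them were Cyp1a1 and Cyp1b1. None held the HNF1 motif, the direct repeat of AGGTCA with 1 base between, to which PPAR or HNF4 can bind, or the C/EBP motif TTGCGCAA, which were in 0.00914%, 0.0335% and 0.164% of all promoters. AAGGTCA and the repeat can overlap, since both contain AGGTCA. Such matches are descriptions of letters and not of bound factors.

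Cyp2f2, which in the mouse airway turns naphthalene into a toxic epoxide, reached the highest level per kilobase of any of the 75 genes. Its gene lies at chr7:27119909-27133660 on the plus strand. It had 307 normalized counts at E18.5 and 555 and 483 in P1 male and female. At 2 weeks it had 14366 in males and 16540 in females, 25.9-fold (24.0 to 28.0) and 34.2-fold (31.1 to 37.7) above P1. These and the other ranges given after a ratio are exact 95% intervals that cover counting error only. In adults it had 115 in the male library, from 82 reads, and 7451 in the female. Both sexes were therefore high at 2 weeks. By 12 weeks the male level was 125-fold (101 to 158) below its 2-week value and the female level 2.22-fold (2.16 to 2.28) below. At 12 weeks the female level was 65.0-fold (52.3 to 81.8) that of the male. A linear model of both sexes (limma, sex as a block) did not call Cyp2f2 from P1 to 2 weeks (4.89 ± 1.36 on the log2 scale, adjusted p 0.0565). Nor did it call the change from 2 to 12 weeks (-4.05 ± 1.36, adjusted p 0.0944).

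Per kilobase of exon, Cyp2f2 made up 76.2% of the level of all the genes together in 2-week males, 75.2% in 2-week females and 55.9% in 12-week females. It shared no stretch of 50 bases with another gene. Scgb1a1, the secretoglobin that defines the airway club cells known for Cyp2f2, had 0 to 1.76 normalized counts in the 7 libraries, and Scgb3a2 and Sftpb were at 0 in all. Another lung gene, Sftpa1, had at most 1.64. Sftpc, also a lung gene, had 5.88 at E18.5, 7.36 and 8.83 at P1, and 26.7 and 28.2 at 2 weeks in males and females. At 12 weeks Sftpc had 51.7 and 31.7, and limma called its rise from P1. The part of lung cells in the level of Cyp2f2 was not tested. The X-zone is the innermost part of the mouse cortex and is lost in males at puberty. Its genes Akr1c18, Pik3c2g and Akr1d1 together had 10799 and 36257 in males and females at 2 weeks and 8.39 and 35574 at 12 weeks. From 2 to 12 weeks the female level of Akr1c18 went from 26949 to 774 and that of Pik3c2g from 500 to 28.3. Akr1d1 went the other way in females, from 8807 to 34772. The part of these X-zone genes in the level of Cyp2f2 was not tested. The neighbouring P450 genes did not share its values: Cyp2a12, 82.5 kb away, had 66.7 and 141 at 2 weeks and 0 in both 12-week libraries, and Cyp2t4, 20.1 kb away, had no read.

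**Figure D1:**
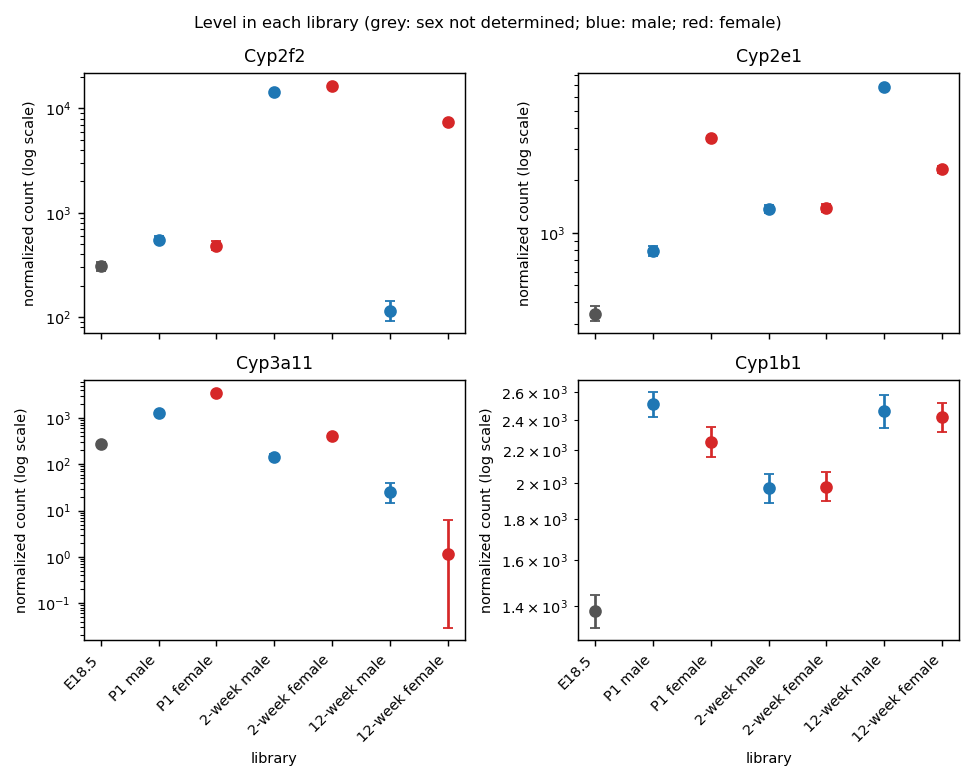
Normalized count (log scale) of 4 P450 genes in each library, grey for the unsexed embryonic pool, blue for male and red for female, with exact 95% Poisson intervals for counting error. Cyp2f2 was at 14366 and 16540 in the 2-week libraries and at 115 in the 12-week male; Cyp1b1 stayed between 1967 and 2510.4 in the 6 postnatal libraries.

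Cyp2e1, which oxidises ethanol, acetone and paracetamol, differed between the sexes in another direction. It lies at chr7:140763739-140774987 on the plus strand. Its normalized counts were 344 at E18.5, 787 and 3483 at P1 in males and females, 1367 and 1393 at 2 weeks in males and females, and 6816 and 2306 at 12 weeks. The sexes were within counting error of each other at 2 weeks, the female library was 4.42-fold higher (4.11 to 4.76) at P1, and the male library was 2.96-fold higher (2.81 to 3.11) at 12 weeks. The 12-week male library was thus the highest, and per kilobase Cyp2e1 was 59.3% of the level of all the genes there. Its level at P1 came beside the liver genes given above, which were 1.39-fold higher in the male library at P1. At 12 weeks the liver genes were 1.16-fold higher in males than in females. In males and females 8 genes that mark fat cells summed to 2916 and 3076 at P1, 44702 and 49463 at 2 weeks, and 33596 and 28114 at 12 weeks. The part of the liver and fat cell genes in the level of Cyp2e1 was not tested.

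Whether the sexes differed at 12 weeks otherwise than before was tested in limma by setting the 12-week difference, male minus female, against its mean at P1 and 2 weeks. Of the 43 genes 3 were called at an adjusted p of 0.05, where 1.58% of all genes tested were. A rise of the difference was called for 2, where 0.861% of all genes rose, and a fall for 1, where 0.718% fell. Cyp2f2 departed by -6.01 ± 0.296 (log2, SE; adjusted p 8.48e-11), Cyp3a11 by 5.06 ± 0.430 (adjusted p 6.44e-07) and Cyp2e1 by 2.65 ± 0.504 (adjusted p 0.00778). The call of Cyp2e1 was lost with a pseudocount of 5 (adjusted p 0.0643), equal totals (0.110), TMM (0.200), edgeR (0.0981) and DESeq2 (0.99995). With 2 weeks alone as the earlier age, which allows no test, the departures were -5.81, 5.07 and 1.59. Cyp3a11 had 18 and 1 reads at 12 weeks, so its 12-week difference rests on few reads. The 12-week side was 1 male against 1 female library, and the 1 residual degree of freedom of the fit was the gap between P1 and 2 weeks, so the p does not measure the spread between animals. In the fit 20.8% of its calls were false in simulated data, and with no trend in eBayes or no filter on low genes it called 0.

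A shared difference between the sexes was then tested over the 3 postnatal ages, with age as a blocking factor. limma called 0 of the 43 genes, where 0.00598% of all genes tested were called, and 5 had an unadjusted p under 0.05, where 3.12% of all genes had. edgeR on the recovered reads also called 0, with 14 under 0.05 (4.06% of all genes), while DESeq2 called 2, Cyp3a25 and Cyp4a10, lower in males (0.0538% of all genes called). In limma the Y-linked genes Ddx3y, Eif2s3y, Kdm5d and Uty were not called either (adjusted p 0.999), at log2 differences of 6.97 to 8.06. The lack of limma calls among the 43 thus does not show that the sexes were alike. Without the 12-week male or the 12-week female library (0.281% and 0.305% of all genes called) limma called 4, Cyp3a11, Cyp3a25, Cyp4a10 and Cyp4a14, all lower in males at P1 and 2 weeks.

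**Figure D2:**
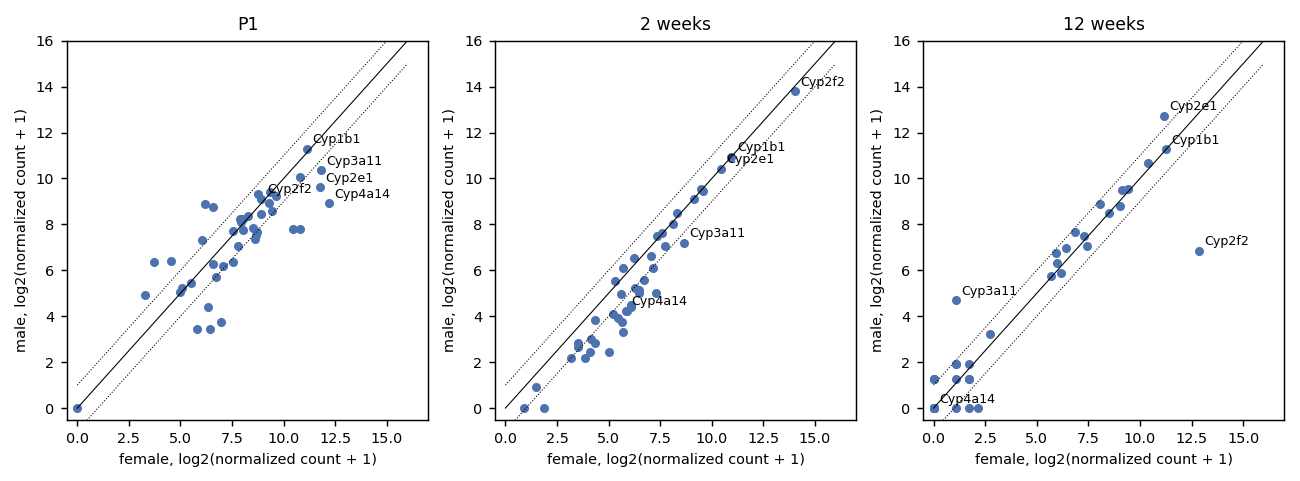
Male against female log2(normalized count + 1) of the 43 tested P450 genes at each postnatal age; the solid line marks equal levels and the dotted lines a 2-fold difference. At 2 weeks 21 genes lay at least 2-fold towards the female library and 0 towards the male, while at 12 weeks Cyp2f2, Cyp2e1 and Cyp3a11 stood off the line and most others were near it or near 0.

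Cyp1b1, which oxidises oestradiol and polycyclic hydrocarbons and is known from steroid-making tissues, varied little over the postnatal libraries. It lies at chr17:79701537-79715061 on the minus strand. It had 1378 normalized counts at E18.5, 2510.4 and 2250 at P1, 1967 and 1978 at 2 weeks and 2459 and 2418 at 12 weeks, in males and females in turn. From P1 to 12 weeks limma gave a log2 difference of 0.04 ± 0.139 (adjusted p 0.849). The other genes of the family were low: Cyp1a1 had at most 16.8, in the 12-week male, and Cyp1a2 at most 36.2, in the 2-week female. Ahr, the receptor that drives family 1 in response to dioxin, fell from P1 to 12 weeks by 1.84 ± 0.213 on the log2 scale (adjusted p 0.00120).

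Most of the tested genes fell. From P1 to 12 weeks, with sex as a block, limma called 34 of the 43, 28 lower and 6 higher, where 41.2% of all genes tested were called (23.5% lower and 17.6% higher). The median difference was -4.61, against -0.03 over all genes, both on the log2(normalized count + 1) scale. With values under 3 reads raised to that floor and no pseudocount, the median was -2.29 in males and -4.26 in females. At 12 weeks 24 of the 43 (55.8%) had no more than 3 reads in either library, against 3.46% of all genes tested; these passed the filter through the younger libraries. All 10 liver genes and all 8 kidney genes fell over the same ages, with median log2 differences of -9.07 and -6.02, and their part in these falls was not tested.

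**Figure D3:**
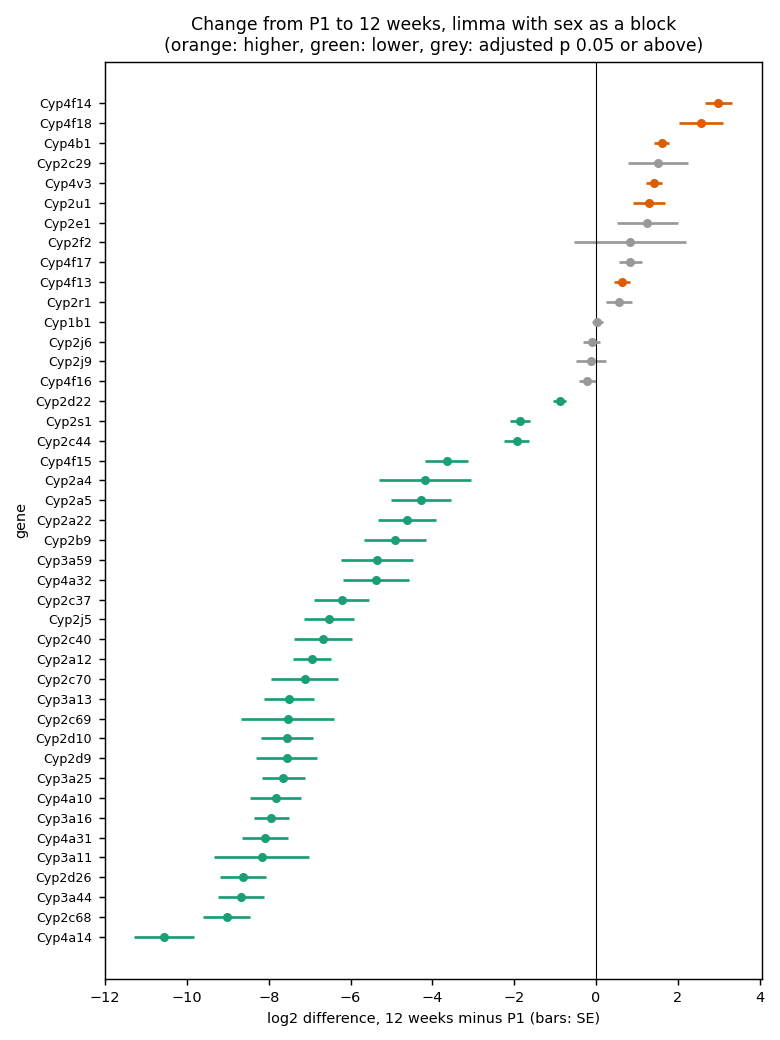
Log2 difference of each tested P450 gene between P1 and 12 weeks in limma, with its SE, coloured by call. The genes of subfamilies 2a, 2d, 3a and 4a lie left of 0, from Cyp4a14 at -10.56 to Cyp2d22 at -0.88, and Cyp4f14 has the highest difference at 2.99.

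The intervals from P1 to 2 weeks and from 2 to 12 weeks were tested as well. From P1 to 2 weeks 21 were called, 18 lower and 3 higher, where 16.4% of all genes tested were (10.5% lower and 5.89% higher). From 2 to 12 weeks 22 were called, 18 lower and 4 higher, where 15.3% were (9.89% lower and 5.40% higher). Of the 28 genes lower at 12 weeks than at P1, 10 fell in both intervals, 8 in the first alone, 7 in the second alone and 3 in neither, counting calls. Of the 3937 genes of the whole table that fell from P1 to 12 weeks, 10.4% fell in both, 28.0% in the first alone, 25.6% in the second alone and 36.0% in neither. The 8 and 7 P450 genes called in 1 interval alone are thus near the shares of the whole table. A gene without a call in an interval can still be lower there. Cyp2d9 had a log2 difference of -2.38 from 2 to 12 weeks (limma, adjusted p 0.0786). Leaving out a P1 or 2-week library leaves 1 library at that age. Calls then became fewer in both intervals, among the 43 genes and also among all genes tested. In the first interval no call of the 43 remained without the P1 male, the P1 female or the 2-week male library. The median log2 difference of the 43 from P1 to 2 weeks was then -2.35 to -1.42, against -2.10 with all libraries.

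The genes of the 2c subfamily, which oxidise drugs and arachidonic acid, were highest around birth. Cyp2c68 led all 75 genes per kilobase at E18.5, with 1034 normalized counts there, 636 and 429 at P1 in males and females, 20.5 and 66.2 at 2 weeks and 0 in both 12-week libraries. From P1 it was at least 152-fold lower in 12-week males and at least 127-fold lower in females. Cyp2c70, which hydroxylates bile acids in the mouse, had 627 at E18.5, 430 and 94.9 at P1, 47.1 and 103 at 2 weeks and 0 and 1.13 at 12 weeks. Cyp2c69 had 257 at E18.5, 474 and 71.7 at P1, 4.45 and 31.8 at 2 weeks and 0 at 12 weeks in both. Cyp2c70 and Cyp2c69 were higher in males at P1 and in females at 2 weeks, when the liver genes were 2.61-fold higher in the female library. Per 1000 liver counts the 2-week values of Cyp2c70 turned, with 3.51 in males and 2.94 in females, while those of Cyp2c69 were 0.331 and 0.905. Cyp2c40 had 158, 159 and 65.1 before 2 weeks and at most 1.76 after. Of the 7 tested 2c genes 6 fell from P1 to 12 weeks, where 23.5% of all genes tested fell. The log2 differences of these 6 ran from -9.03 (Cyp2c68) to -1.94 (Cyp2c44).

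Cyp2c29 did otherwise: it had 0 reads at E18.5 and in both P1 libraries, 36.5 and 75.9 normalized counts at 2 weeks and 2.80 and 1.13 at 12 weeks. It rose from P1 to 2 weeks (5.75 ± 0.735, adjusted p 0.00584) and fell by 4.24 ± 0.735 after (adjusted p 0.0139). The rise was not called without any 1 of the 4 libraries it compares (adjusted p 0.0608 to 0.0842), nor the fall without either 2-week library (0.0842 to 0.177). Cyp2c44 kept 58.7 and 72.4 at 12 weeks, from 166 and 386 at P1, and its fall was not called without the P1 female library (adjusted p 0.0665). Of the 50-base stretches in the exons of Cyp2c40, Cyp2c69, Cyp2c67 and Cyp2c68, 60.3%, 54.3%, 52.8% and 43.3% were found in another gene as well, so reads of these genes could be split and their separate values are uncertain.

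Subfamilies 2a, 2b and 2d, which oxidise drugs, steroids and plant alkaloids, also fell. Cyp2d26 led per kilobase in P1 male, with 852 normalized counts at E18.5, 1066 and 1798 at P1, 31.1 and 155 at 2 weeks, and 2.80 and 2.26 at 12 weeks. It fell by 8.62 ± 0.563 from P1 to 12 weeks (adjusted p 0.000195). Cyp2a12 had 92.4 at E18.5, 80.2 and 187 at P1, 66.7 and 141 at 2 weeks and 0 at 12 weeks in both libraries. It was not called from P1 to 2 weeks and fell by 6.62 ± 0.469 after (adjusted p 0.000998). All 4 tested 2a genes, the 1 tested 2b gene and all 4 tested 2d genes fell from P1 to 12 weeks, where 23.5% of all genes tested fell. Cyp2d22 fell least, by 0.88 ± 0.158 (adjusted p 0.00590; 0.0512 without the P1 male), and still had 362 and 355 at 12 weeks. Cyp2a4 and Cyp2a5 shared 38.0% and 37.0% of their 50-base stretches with each other or another gene, and the call of Cyp2a4 was lost without the P1 male (adjusted p 0.0617) or the 12-week male library (adjusted p 0.0697).

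Other genes of family 2 held their level. Cyp2j6 and Cyp2j9, which make epoxides of arachidonic acid, had 567 to 794 and 117 to 216 in the 6 postnatal libraries, and neither was called from P1 to 12 weeks. Cyp2r1, the vitamin D 25-hydroxylase, had 33.1 to 63.9 over the 7 libraries. Cyp2j5 differed from these 2, with 298 and 232 at P1, 14.2 and 42.3 at 2 weeks and 2.80 and 1.13 at 12 weeks. Cyp2j11 and Cyp2j13, below the limit for testing, had 49.1 and 51.6 in P1 male, 11.0 and 5.52 in P1 female and at most 0.882 in the later libraries. Cyp2s1 fell by 1.85 ± 0.248 from P1 to 12 weeks (adjusted p 0.00206), from 272 and 242 to 79.7 and 62.2. Cyp2u1, a hydroxylase of long fatty acids, rose from 32.7 and 30.9 at P1 to 132 and 213 at 2 weeks (2.36 ± 0.397, adjusted p 0.0125; 0.0608 to 0.144 without 1 of these 4 libraries) and had 106 and 60.0 at 12 weeks. Its call from P1 to 12 weeks was lost without the 12-week male, P1 male or P1 female library (adjusted p 0.203, 0.196 and 0.204).

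Cyp3a11, the main drug-oxidising P450 of mouse liver, lies at chr5:145854426-145879964 on the minus strand. It had 277 normalized counts at E18.5, 1308 and 3529 at P1, 147 and 404 at 2 weeks, and 25.2 and 1.13 at 12 weeks, in males and females in turn. It rose before it fell: the P1 male and female libraries were 4.72-fold (4.19 to 5.33) and 12.7-fold (11.4 to 14.3) above E18.5, and both sexes then had lower values at each later age. All 6 tested 3a genes fell from P1 to 12 weeks, where 23.5% of all genes tested fell. Their log2 differences ran from -8.68 (Cyp3a44) to -5.35 (Cyp3a59). Cyp3a25 had 49.6 at E18.5, 223 and 1395 at P1, 31.1 and 87.3 at 2 weeks and 1.40 and 2.26 at 12 weeks. Cyp3a16, a form known from fetal liver, was already at 447 at E18.5 and had 385 and 686 at P1, below and above that level. The call of Cyp3a11 from P1 to 12 weeks was lost without the P1 female library (adjusted p 0.0693), and 30.0% of the 50-base stretches of Cyp3a59 were shared, mainly with Cyp3a25.

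The 4a genes, which hydroxylate fatty acids and are classical targets of PPARα, were among those that differed most between the libraries of P1. Cyp4a14 stood at 43.7 normalized counts at E18.5 and at 482 and 4711 in the male and female libraries of P1, then 17.8 and 56.5 at 2 weeks and 0 in both 12-week libraries. The P1 female library was 9.77-fold (8.97 to 10.7) above the P1 male and 108-fold (82.1 to 145) above E18.5. Cyp4a10 had 42.9 at E18.5, 224 and 1793 at P1, 6.23 and 19.4 at 2 weeks and 1.40 and 2.26 at 12 weeks. Both were highest in P1 female, next highest in P1 male, and at most 56.5 in the other 5 libraries. Cyp4a31 was 2.12-fold (1.79 to 2.51) and Cyp4a32 3.88-fold (2.43 to 6.39) higher in P1 female than in P1 male. Of the 50-base stretches of Cyp4a32, Cyp4a10 and Cyp4a31, 43.8%, 29.8% and 20.6% were found in another gene as well, against 0.235% for Cyp4a14. Reads of these 3 genes could be split, so their separate values are less certain than the intervals show. All 4 tested 4a genes fell from P1 to 12 weeks, where 23.5% of all genes tested fell. Cyp4a14 had a log2 difference of -10.56 ± 0.725 (adjusted p 0.000221). From P1 to 12 weeks Cyp4a14 was at least 115-fold lower in males and at least 1388-fold lower in females.

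At P1 the liver genes were 1.39-fold higher in the male library than in the female, and their part in the difference of the 4a genes was not tested. Per 1000 normalized counts of the liver genes, Cyp4a14 had 0.171 at E18.5, 1.43 and 19.4 at P1, and 1.32 and 1.61 at 2 weeks in males and females. Cyp3a11 had 1.09, 3.87, 14.5, 10.9 and 11.5 in the same order. At P1 13 of the 43 genes were at least 2-fold higher in females and 6 in males, where 6.78% of all genes tested differed 2-fold (3.03% higher in females and 3.75% in males). At 2 weeks, where the liver genes were 2.61-fold higher in females, 21 genes were at least 2-fold higher in females and 0 in males, where 4.24% of all genes tested differed 2-fold (3.67% higher in females and 0.568% in males). Per liver count 2 of these 21 stayed at least 2-fold higher, Cyp2c37 and Cyp2c69, named after their values were seen. The same scaling kept 13 of the 13 genes higher in females at P1, and 1 of 4 at 12 weeks. At 12 weeks 5 genes were at least 2-fold higher in males and 4 in females, where 8.83% of all genes tested differed 2-fold (4.84% higher in males and 3.98% in females). With a pseudocount of 5 the counts were 2 and 1, where those of all 16720 genes were 526 and 468. These differences between single libraries carry no test.

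**Figure D4:**
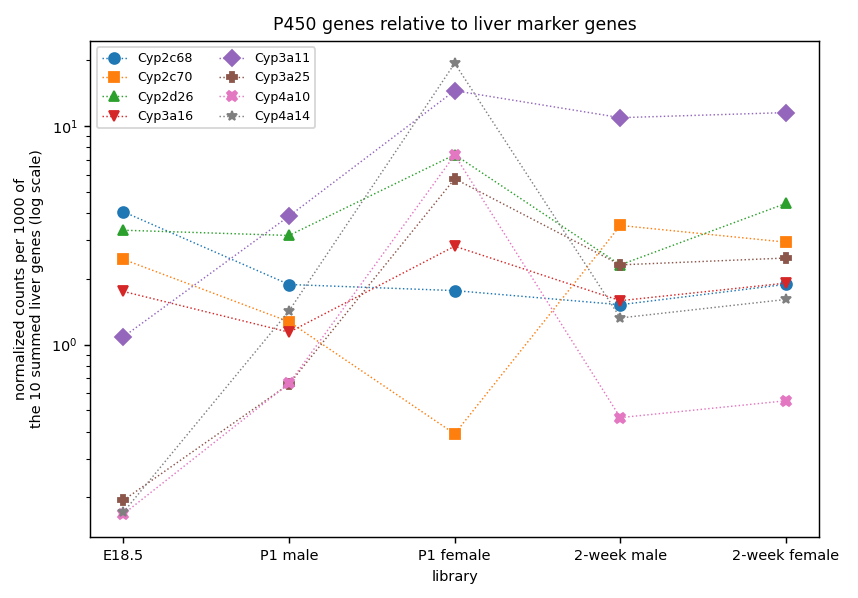
Normalized counts of 8 P450 genes per 1000 normalized counts of the 10 summed liver genes (log scale) in the 5 libraries up to 2 weeks; dotted lines join the values of a gene. Cyp4a14 stands at 19.4 in P1 female against 1.43 in P1 male, while the 2-week values of each of the 8 genes in males and females lie within 2-fold of each other, with Cyp3a11 at 10.9 and 11.5.

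The step from E18.5 to P1 was mostly upward. Against the P1 male library 14 of the 43 genes were at least 2-fold higher and 0 lower, where 8.40% of all genes tested differed 2-fold (4.90% higher and 3.50% lower). Against the P1 female library 22 were higher and 7 lower, where 13.2% did (7.04% higher and 6.12% lower). In P1 male Cyp3a44 was 14.8-fold (10.1 to 22.6), Cyp4a14 11.0-fold (8.30 to 14.9), Cyp4a31 5.87-fold (4.15 to 8.51), Cyp4a10 5.23-fold (3.87 to 7.20) and Cyp3a11 4.72-fold above E18.5. The summed kidney genes also stood higher in P1 male than at E18.5. So did 7 genes of the exocrine pancreas, which summed to 27.7 at E18.5, 5705 in P1 male and 71.7 in P1 female. The part of the kidney and pancreas genes in these differences was not tested. The 7 lower in P1 female included Cyp2c70, at 0.151 of its E18.5 level (0.120 to 0.190), and Cyp2c68, at 0.415 (0.369 to 0.466).

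In family 4 another group rose as the 4a genes fell. Cyp4b1, which hydroxylates medium-chain fatty acids and activates furan toxins, had 214 normalized counts at E18.5, 212 and 257 at P1, 258 and 273 at 2 weeks and 737 and 695 at 12 weeks. It rose by 1.61 ± 0.185 from P1 to 12 weeks (adjusted p 0.00116). Both 12-week libraries lay above the other 5. Its gene lies 3.12 kb from Cyp4a32 on chromosome 4, and the 2 genes moved in opposite directions. Cyp4v3, a fatty acid hydroxylase whose human counterpart is mutated in Bietti crystalline dystrophy, had 429 at E18.5, 483 and 620 at P1, 705 and 759 at 2 weeks and 1620 and 1331 at 12 weeks. It rose by 1.42 ± 0.192 from P1 (adjusted p 0.00212).

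Cyp4f14 and Cyp4f18, which inactivate leukotriene B4, rose as well. Cyp4f14 had 27.7 at E18.5, 42.5 and 45.3 at P1, 98.7 and 131 at 2 weeks and 471 and 269 at 12 weeks, and rose by 2.99 ± 0.336 from P1 to 12 weeks (adjusted p 0.00106). Cyp4f18, a form known from neutrophils, had 8.83 to 29.5 in the 5 younger libraries and 123 and 83.7 at 12 weeks. The 4 neutrophil genes Ngp, Camp, Ltf and S100a8 summed to 2746 and 1680 at P1, 23.1 and 1409 at 2 weeks and 43.3 and 40.7 at 12 weeks, and their part in its level was not tested. Cyp4f13 was called as rising by 0.64 ± 0.187 (adjusted p 0.0347), but not without the P1 male (adjusted p 0.115), P1 female (0.170), 2-week male (0.0812), 2-week female (0.0795) or 12-week female library (0.196). The call of Cyp4f18 was lost without the P1 female (adjusted p 0.0998). Cyp4f15 fell by 3.65 ± 0.527 (adjusted p 0.00265; 0.0523 without the P1 female), and Cyp4f16 and Cyp4f17 were not called, with 157 to 208 and 74.1 to 173 in the postnatal libraries. The 8 adipocyte genes summed to 2916 and 3076 at P1, 44702 and 49463 at 2 weeks and 33596 and 28114 at 12 weeks. Ucp1, Cidea, Plin1 and Fabp4 were lower at 12 than at 2 weeks in both sexes, Ucp1 from 19373 and 21706 to 2705 and 2197. Adipoq, Cfd, Retn and Adrb3 were higher, Adipoq from 1929 and 2408 to 5237 and 3026. The part of the adipocyte genes in the rise of these 4b, 4f and 4v genes was not tested.

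**Figure D5:**
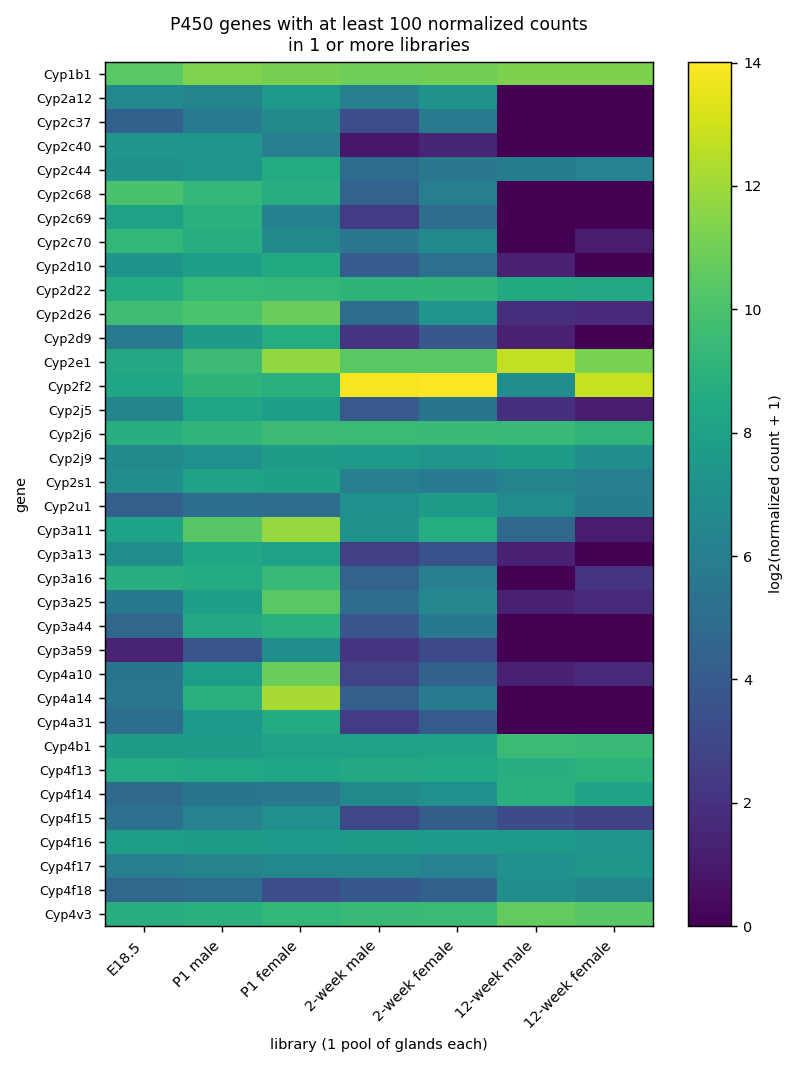
Colour map of log2(normalized count + 1) for the 36 P450 genes with at least 100 normalized counts in 1 library or more, ordered by family, over the 7 libraries. Most genes of subfamilies 2c, 3a and 4a darken towards 12 weeks, with Cyp2c44 brighter at 12 than at 2 weeks, Cyp2f2 is brightest at 2 weeks and in the 12-week female, and Cyp1b1 and Cyp4v3 stay bright throughout.

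The partners of these enzymes were followed from lists of named genes. Of 6 listed partners, Por, Cyb5a, Cyb5b, Cyb5r3, Pgrmc1 and Pgrmc2, not all of them electron carriers, 4 rose from P1 to 12 weeks and 0 fell. Of all genes tested 17.6% rose and 23.5% fell. Among the 4 were Cyb5b (1.14 ± 0.232, adjusted p 0.00967) and Cyb5a (0.72 ± 0.150, adjusted p 0.0102). Without either P1 library these 2 calls were lost (adjusted p 0.0687 to 0.118). Por, the reductase itself, was not called; it had 3643 and 3492 at P1 and 2601 and 4234 at 12 weeks. Of 9 genes of heme supply, 2 rose and 1 fell, a count near those shares. Among them Alas1, the first enzyme of heme synthesis, rose by 2.23 ± 0.172 (adjusted p 0.000301), from 5911 and 4819 to 24462 and 25505. Its P1 values were its lowest, as it had 18260 at E18.5 and 18330 and 15603 at 2 weeks in males and females. Of 8 enzymes that take up P450 products, 4 rose and 0 fell against the same shares, with Ephx1, the epoxide hydrolase, rising by 2.49 ± 0.279 (adjusted p 0.00105).

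Of 16 regulators of these genes, 1 rose and 6 fell from P1 to 12 weeks, where 17.6% of all genes tested rose and 23.5% fell. Hnf4a, a nuclear receptor of hepatocytes and kidney tubules, fell by 8.80 ± 0.439 (adjusted p 0.000109), with 1183 and 861 at P1 and 1.40 and 1.13 at 12 weeks. Nr1i2 and Nr1i3, the drug-sensing receptors PXR and CAR that induce the 3a and 2b genes, had log2 differences of -5.81 ± 0.718 and -5.38 ± 0.709 (adjusted p 0.00154 and 0.00195). These 3 fell over the same ages as the liver genes, whose part in their levels was not tested. Ppara, the receptor for which the 4a genes are known as targets, had 638 and 766 at P1, 1475 and 1719 at 2 weeks and 456 and 455 at 12 weeks. It rose from P1 to 2 weeks by 1.19 ± 0.156 (adjusted p 0.00632), over the interval in which all 4 tested 4a genes fell; without 1 of the 4 libraries of that interval the adjusted p was 0.0696 to 0.0909. Its fall from P1 to 12 weeks (-0.62 ± 0.156, adjusted p 0.0206) was not called without any 1 library other than the 12-week male (0.0633 to 0.113). Cebpa rose by 1.54 ± 0.181 from P1 to 12 weeks (adjusted p 0.00125).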

How the data were processed

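Adrenal RNA was sequenced in 7 libraries. The authors deposited 1 table of normalized counts, a signal equal to reads divided by 1 size factor per library. The values gave whole reads with a largest deviation of 0.000114. Per the submitters' processing notes, CASAVA 1.8.2, HISAT2 2.1.0, HTSeq 0.9.1 and DESeq2 2.11.40.6 were used on mm10; the use of strand in counting is not given in the sources used here. Positions come from GENCODE M21 (74 genes matched).

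limma 3.58.1 in R 4.3.3 (lmFit, eBayes with a trend) was run on log2(normalized count + 1) of the 6 postnatal libraries, two-sided, for the 16720 genes with a mean of at least 10, with Benjamini-Hochberg adjustment over all of them. Ages or sexes stood in for replicates, so p-values measure only the spread between these pools. Single libraries were compared by 2-fold counts and exact 95% intervals, which cover counting error only (reads can be copies of 1 molecule). edgeR 4.0.16 and DESeq2 1.42.0 on recovered reads, other scalings, filters and pseudocounts, and leaving out each library were the alternatives. On simulated data with 200 genes changed by 2 on the log2 scale, the fits recovered 95% (sex), 42% (departure), 88.5% (P1 to 2 weeks), 86% (2 to 12 weeks) and 87% (P1 to 12 weeks), with 9.95%, 20.8%, 7.33%, 11.3% and 12.1% of calls false. In the sex fit of the measured libraries Ddx3y, Eif2s3y, Kdm5d and Uty were not called, at log2 differences of 6.97 to 8.06. The share of true changes recovered in the measured libraries was not tested. Most of the P450 genes named had at least 100 normalized counts in a library or were called in limma. Some that met neither condition, such as Cyp2r1 and Cyp1a1, are named as well. The genes and lists were chosen with earlier results of these data known. Cyp3a41a, Cyp3a41b, Cyp4a12a, Cyp4a12b, Cyp2ab1 and Cyp4a30b do not match the rule of selection. A gene of a list used in the closing section is not reported here, so no count is given over that list.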

Additional observations from a re-analysis of the deposited data

Results flagged for a closer look

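Some genes had a sex difference at 12 weeks that departed from the earlier ages in limma, as male minus female on the log2 scale. Cyp2f2 departed by -6.01, Cyp3a11 by 5.06 and Cyp2e1 by 2.65. The 12-week side is 1 library of each sex, so these tests do not measure the spread between animals.

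For 4 genes the sexes differed at least 2-fold and beyond counting error in opposite directions at different ages, and these oppositions were not tested over animals because each age and sex had 1 library. Cyp2e1 differed by -2.14 at P1 and by 1.56 at 12 weeks. Cyp3a11 differed by -1.43 at P1, -1.45 at 2 weeks and 3.62 at 12 weeks, where it had 18 and 1 reads. Cyp2c69 differed by 2.71 at P1 and -2.59 at 2 weeks, and Cyp2c70 by 2.17 and -1.11. Per liver count the 2-week difference of Cyp2c70 turned, with 3.51 in males and 2.94 in females per 1000. Cyp2a4, Cyp2d9 and Cyp2d10 met the 2-fold limit in both directions too, but had at most 2 reads in either 12-week library.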

How the results depend on the processing

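No result reversed under any alternative run. The sex comparison called 0 genes of the 43, but 2 with DESeq2, and 0 to 4 when 1 library was left out. The 12-week departure called 3, but 0 with all genes of a mean above 0 or with no trend in eBayes, where 0 of all genes were called. With a pseudocount of 0.1 it called 6, where 367 of all 16720 genes were called. Cyp2f2 and Cyp3a11 were called and Cyp2e1 was not with a pseudocount of 5, equal totals, TMM, edgeR and DESeq2. No library could be left out of that fit, which has 1 residual degree of freedom. From P1 to 2 weeks the count of 21 became 0 with all genes of a mean above 0, and 0 to 28 when 1 library was left out. From 2 to 12 weeks the count of 22 became 0 with all genes of a mean above 0, and 5 to 26 with 1 library left out. From P1 to 12 weeks the count of 34 lay between 25 and 35 throughout, 29 to 35 with 1 library left out. From P1 to 2 weeks and from 2 to 12 weeks 0 of all 27254 genes of a mean above 0 were called. In both intervals calls among all genes tested became fewer without a P1 or 2-week library and more without a 12-week library. The counts of the 43 genes moved the same way. With 4-fold in place of 2-fold the counts were 7 (E18.5 to P1 male, from 14), 14 (to P1 female, from 29), 10 (sex at P1, from 19), 3 (2 weeks, from 21) and 3 (12 weeks, from 9). At 4-fold 280, 400, 209, 185 and 276 of all 16720 genes differed, in the same order. With all genes of a mean above 0 the 2-fold counts, of 67, were 22 for E18.5 to P1 male, 29 for sex at P1 and 14 for sex at 12 weeks. Of all 27254 genes 3933, 4550 and 5215 differed there, so the 14 are near the share of all genes. At a mean of at least 50 sex at P1 gave 11 of 32, where 473 of 13670 genes differed. With a pseudocount of 5 sex at 12 weeks gave 3, where 994 of 16720 genes differed. The cause of these changes was not tested, apart from the smaller or larger number of genes that a filter admits. For single genes, 29 of 501 alternative values lost their call from P1 to 12 weeks, 100 of 311 from P1 to 2 weeks, 92 of 325 from 2 to 12 weeks and 11 of 27 for the 12-week departure. Equal totals moved the median of all genes from -0.03 to -0.20 between 2 and 12 weeks. The blocks in limma paired libraries of the same age or the same sex. Animals could not be paired, because each group had 1 library made from a pool. Genes at or under 3 reads at 12 weeks limit what can be said of their folds there.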

Other observations

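Other genes of fatty acid use known as PPARα targets, chosen after values were seen, were set beside the 4a genes. At least 2-fold higher in P1 female than in P1 male were Ehhadh (462 and 1599 normalized counts in males and females), Vnn1 (323 and 694), Acot3 (30.3 and 155) and Fgf21 (2.45 and 25.4). Acadm had 6152 in P1 male and 4550 in P1 female, the other direction. These differences between single libraries carry no test.

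P450 genes of other families were chosen the same way. Cyp7a1, the rate-limiting enzyme of bile acid synthesis, had 618 normalized counts in P1 male, 194 in P1 female and 0 and 3.39 at 12 weeks. Cyp24a1 and Cyp27b1, the vitamin D hydroxylases of the kidney, had 285 and 228 in P1 male against 27.6 and 4.42 in P1 female, beside the kidney gene sums of 9353 and 2590. Cyp20a1 had 504 to 875 in the 7 libraries.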
